A study of Mus musculus with 6 samples.

Results

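The genes described here are 10 enzymes of glutathione turnover and of the NRF2 response: Cth, Gclc, Gclm, Gss, Gsr, Chac1, Hmox1, Nqo1, Txnrd1 and Srxn1. They were chosen by symbol, with earlier results of these data known. They are 10 of the 47069 genes in the count table. All 10 passed the filter on low counts, which kept 14165 genes. They were measured by RNA-seq of polyadenylated RNA from muscle stem cells and their progeny, called myoblasts in the study, which were sorted from the muscle of male mdx mice (cells with Itga7 and Itgb1 and without Sca-1, CD45, CD31 or CD11b) and grown with FGF2 and serum. The mdx mouse lacks dystrophin and is a model of Duchenne muscular dystrophy, and both groups carry this defect, so there is no wild-type group. The 3 libraries of the vehicle group received DMSO in aqueous buffer, and the 3 libraries of the other group received 10 μM PSB-KD107, a synthetic agonist of the receptor Gpr18 (the treatment field of the records writes PSB-KD-1). The sample records give a treatment of 2 days, whereas the study's own text gives overnight. The methods state that the cells came from 3 different mice, but the records do not tie a library to a mouse. The libraries of each group are numbered 1, 2 and 4 in the table, and p-values measure only the spread between these libraries.

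Glutathione, the main small thiol of the cell, is made from glutamate, cysteine and glycine, and it is oxidized and reduced again as it detoxifies peroxides and reactive compounds. NRF2 (gene Nfe2l2) is a transcription factor that is held down by KEAP1 and that, once released by oxidants or electrophiles, binds antioxidant response elements together with small MAF proteins. Most genes of glutathione synthesis and recycling are among its known targets, as are several other protective enzymes. CHAC1 works in the opposite direction: it cleaves glutathione inside the cell, and its gene is a known target of the stress factors ATF4 and CHOP. In skeletal muscle, glutathione and NRF2 are known for their part in the defence against the oxidative stress of dystrophic fibers.

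The libraries held 30917613 to 48756794 counts, and 3 counts, the least taken as detected, correspond to 0.0596 to 0.0962 CPM (counts scaled to a common library size by TMM factors). The 10 myoblast markers summed to 9597 to 9860 CPM with vehicle and 9223 to 9875 CPM with PSB-KD107. The cells labelled as satellite cells also held much RNA of differentiating muscle: the 7 markers of that state found in the table, led by the embryonic myosin Myh3, summed to 30791 to 34454 CPM with vehicle and to 24635 to 30410 CPM with PSB-KD107, so the ranges did not overlap. Pax7, the defining factor of satellite cells, was at 68.8, 49.9 and 60.0 CPM with vehicle and at 34.0, 26.8 and 35.1 CPM with PSB-KD107. Markers of other cells were low, with 0.770 to 6.62 CPM in sum for blood cells and macrophages (Adgre1 and Tyrobp at 0), 1.95 to 10.7 CPM for fibro-adipogenic cells (Lum at 0), 0.310 to 1.40 CPM for endothelium (Tie1 and Emcn at 0), 1.21 to 4.09 CPM for Schwann cells and at most 0.0642 CPM for fat cells (Plin1 at 0). The fibro-adipogenic sum was 1.95 to 5.05 CPM with vehicle and 2.31 to 10.7 CPM with PSB-KD107. Of these markers, Ly6a, which encodes Sca-1, was at 8.36 CPM in PSB-KD107 library 4 and at 0.155 to 1.29 CPM in the other libraries. In bulk RNA, a change in the share of a cell type and a change of RNA per cell cannot be told apart. The part of the shift in Pax7 and in differentiation markers, and of Ly6a in library 4, in the results was not tested.

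In GRCm38 with the GENCODE M21 annotation, Chac1 lies at chr2:119351229-119354381 (plus strand), Srxn1 at chr2:152105516-152111376 (plus) and Gss at chr2:155563181-155592810 (minus). Gclm lies at chr3:122245557-122270732 (plus) and Cth at chr3:157894248-157925077 (minus). Gsr at chr8:33652523-33698163 (plus), Hmox1 at chr8:75093621-75100589 (plus) and Nqo1 at chr8:107388225-107403206 (minus) share a chromosome, Gclc lies at chr9:77754535-77794485 (plus) and Txnrd1 at chr10:82833951-82897712 (plus). Exons of Gclm overlap an RNA gene on the other strand (4.71% of its exon bases) and a pseudogene on its own strand (3.88%). Exons of Gss overlap Acss2 (6.68%) and the RNA genes Gssos1 (5.44%) and Gssos2 (6.51%), all on the other strand. The use of strand in counting is not given in the sources used here, so reads of these stretches cannot be assigned with certainty. The other 8 genes share no exon base with an annotated neighbour.

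Promoter windows were looked up because the enzymes belong to regulons that read different DNA elements, NRF2 the antioxidant response element and ATF4 the C/EBP-ATF response element (CARE). RefSeq windows of GRCm38.p6 were at hand for Chac1, Gclm, Gss, Nqo1, Txnrd1 and Srxn1, and the 250 bases before each start site were searched on both strands. The antioxidant response element was searched by its core, TGACNNNGC, which occurs in 10.2% of all 32851 windows of this length, and CARE by its core, TGATGNAA, which occurs in 3.45%. Chac1 holds 1 CARE core. Gclm and 1 of the 3 windows of Txnrd1 hold 1 antioxidant response element core each. The windows of Gss, Nqo1 and Srxn1 hold neither. Only these 250 bases were searched, so an element outside them would not be seen. Slc7a11, the cystine importer described below, holds 2 CARE cores. The 4 windows are shown 5′ to 3′ along the gene, ending at the base before the start site, with the matches in capitals. A match is a description of letters and not a site shown to be bound. The windows are chr2:119350992-119351241 (plus) for Chac1, chr3:50443614-50443863 (minus) for Slc7a11, chr3:122245307-122245556 (plus) for Gclm and chr10:82858956-82859205 (plus) for Txnrd1.
Chac1: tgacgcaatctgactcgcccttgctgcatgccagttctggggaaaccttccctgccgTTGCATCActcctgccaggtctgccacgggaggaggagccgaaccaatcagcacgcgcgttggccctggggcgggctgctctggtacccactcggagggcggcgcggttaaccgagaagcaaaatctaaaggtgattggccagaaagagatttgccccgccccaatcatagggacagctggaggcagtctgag
Slc7a11: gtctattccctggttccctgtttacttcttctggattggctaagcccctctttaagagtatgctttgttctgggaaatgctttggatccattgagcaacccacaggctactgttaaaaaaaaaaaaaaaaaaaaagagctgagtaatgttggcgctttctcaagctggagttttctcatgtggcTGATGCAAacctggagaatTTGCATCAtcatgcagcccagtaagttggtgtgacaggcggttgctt
Gclm: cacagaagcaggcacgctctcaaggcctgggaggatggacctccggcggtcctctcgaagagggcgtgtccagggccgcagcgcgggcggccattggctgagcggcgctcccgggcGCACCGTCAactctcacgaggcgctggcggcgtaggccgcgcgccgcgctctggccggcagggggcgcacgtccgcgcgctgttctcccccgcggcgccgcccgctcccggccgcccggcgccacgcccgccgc
Txnrd1: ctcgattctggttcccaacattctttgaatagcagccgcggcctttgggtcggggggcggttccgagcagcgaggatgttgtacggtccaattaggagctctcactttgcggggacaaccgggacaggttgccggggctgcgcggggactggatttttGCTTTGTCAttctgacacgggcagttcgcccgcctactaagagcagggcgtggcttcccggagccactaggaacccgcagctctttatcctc
In Chac1 the CARE core starts 193 bases upstream of the start site and reads on the opposite strand. In Slc7a11 the cores start 66 and 47 bases upstream, on opposite strands. The antioxidant response element cores of Gclm and Txnrd1 start 134 and 92 bases upstream, both on the strand opposite to the gene.

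The comparison of PSB-KD107 with vehicle asks how the agonist changes the transcriptome of mdx myoblasts. Of the 10 enzymes, 9 had a higher fitted level with PSB-KD107, against 49.9% of all genes tested, and their median log2 fold change was 0.76, against -0.000743 for all genes. Without PSB-KD107 library 1 the median was 0.17, with 3 of the 10 below 0, and without vehicle library 1 it was 1.31. Chac1, which breaks glutathione down, the heme-degrading enzyme Hmox1 and the cysteine-producing enzyme Cth were higher in every PSB-KD107 library than in any vehicle library, whereas the glutathione-building enzymes Gclc, Gclm and Gss and the recycling enzyme Gsr overlapped between the groups. The groups did not overlap, with PSB-KD107 higher, for 3 of the 10 enzymes and for 9.20% of all genes tested. At an unadjusted p under 0.05 in edgeR's quasi-likelihood test, 4 of the 10 were higher and 0 lower, where 6.47% of all genes were higher and 2.93% lower (9.40% in all). After adjustment over all genes, edgeR called 0 of the 10 and 0% of all genes, and limma-voom also called 0 genes. DESeq2, the tool of the study's methods, called 3 of the 10 (Chac1, Hmox1 and Cth, all higher), against 2.96% of its genes called, 2.25% as higher. With 3 libraries against 3, the smallest two-sided exact permutation p is 0.1, which cannot pass 0.05. The 10 enzymes were chosen with earlier results of these data known, and the paper names Chac1 among its upregulated genes. Their counts beside the shares of all genes are therefore a description and not independent evidence.

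**Figure D1:**
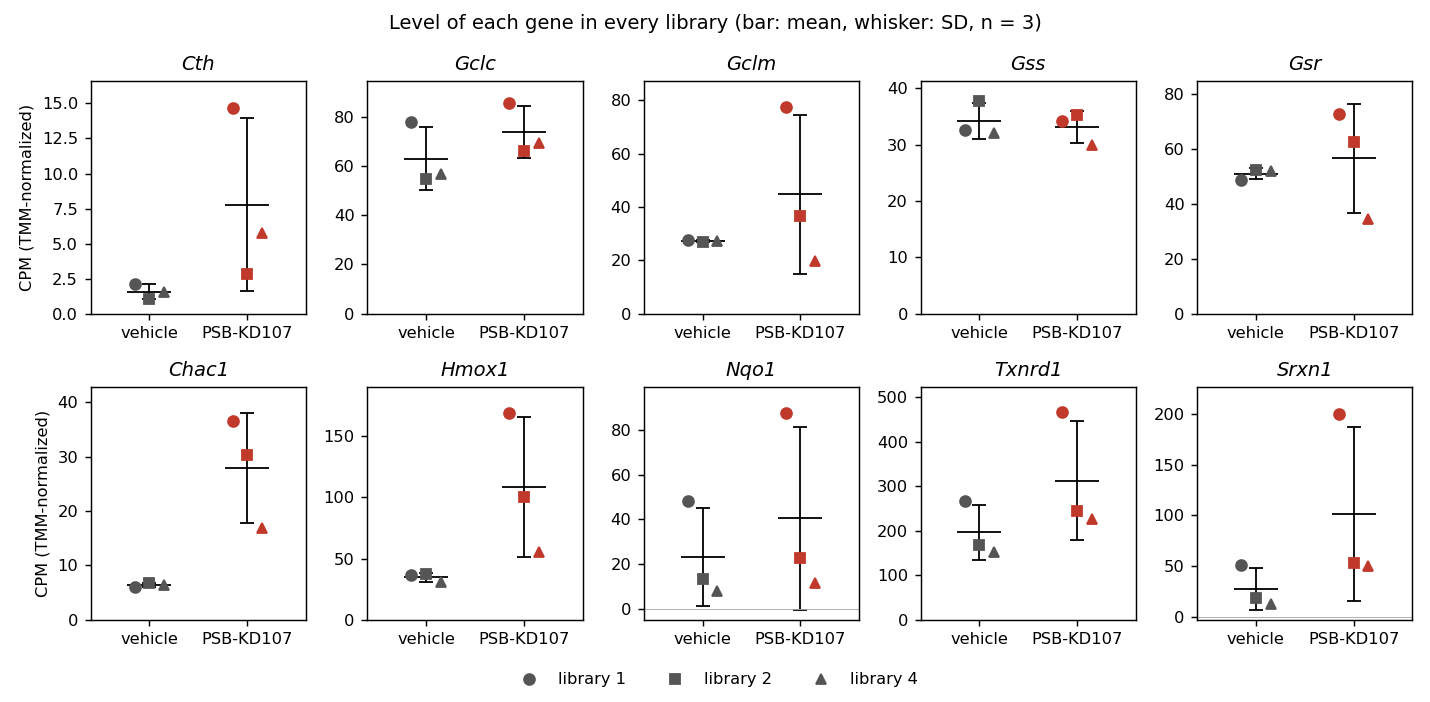
Level of each enzyme in CPM (vertical axes from 0 or just below, a separate scale for each gene) in the 3 vehicle libraries (grey) and the 3 PSB-KD107 libraries (red), with the mean as a bar and the SD as whiskers. Chac1, Hmox1 and Cth separate the groups, and PSB-KD107 library 1 (circle) is the highest treated library for 9 of the 10 enzymes.

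Cysteine limits the synthesis of glutathione, and cystathionine gamma-lyase (Cth) makes it from cystathionine. Cth was at 2.09, 1.03 and 1.55 CPM in vehicle libraries 1, 2 and 4 and at 14.7, 2.85 and 5.75 CPM in PSB-KD107 libraries 1, 2 and 4. All treated libraries were above all vehicle libraries, but library 1 stood far above the other treated ones. The means were 1.56 ± 0.531 and 7.76 ± 6.17 CPM (SD, n = 3). PSB-KD107 differed from vehicle by a log2 fold change of 2.32 (SE 0.65), with an adjusted p of 0.365 in edgeR and 0.0104 in DESeq2. Leaving out vehicle library 2, vehicle library 4 or PSB-KD107 library 1 raised the DESeq2 adjusted p of Cth to 0.199, 0.143 and 0.158, respectively. Without PSB-KD107 library 1 its log2 fold change in edgeR was 1.45.

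Glutamate-cysteine ligase joins glutamate and cysteine, the rate-limiting step of synthesis, and consists of a catalytic subunit (Gclc) and a modifier subunit (Gclm). Gclc was at 77.9, 54.7 and 56.6 CPM with vehicle and at 85.8, 66.3 and 69.4 CPM with PSB-KD107. Vehicle library 1 lay within the treated range, and the other vehicle libraries lay below it. Gclc had a log2 fold change of 0.23 (SE 0.18), with an adjusted p of 0.737 in edgeR. Gclm was held within 26.7 to 27.5 CPM in the vehicle libraries, the tightest of the 10 enzymes, but spread over 77.7, 36.6 and 19.9 CPM in PSB-KD107 libraries 1, 2 and 4. Treated library 4 was therefore below, and libraries 1 and 2 above, every vehicle library. For Gclm the log2 fold change was 0.72 (SE 0.47), with an adjusted p of 0.686 in edgeR. It was 0.04 without PSB-KD107 library 1 and 1.07 without PSB-KD107 library 4, where the unadjusted p was 0.0190.

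Glutathione synthetase (Gss) adds glycine in the final step. It was at 32.6, 37.9 and 32.1 CPM with vehicle and at 34.2, 35.3 and 29.9 CPM with PSB-KD107. Treated library 4 was the lowest and vehicle library 2 the highest of all, with the other libraries of both groups mixed between them. Gss had the smallest fitted difference of the 10, with a log2 fold change of -0.05 (SE 0.12) and an adjusted p of 0.924 in edgeR. Glutathione reductase (Gsr), which returns oxidized glutathione to its reduced form, was at 48.7, 52.4 and 52.1 CPM with vehicle and at 72.9, 62.5 and 34.6 CPM with PSB-KD107. As for Gclm, treated libraries 1 and 2 lay above and library 4 below all vehicle libraries. Gsr had a log2 fold change of 0.15 (SE 0.27), with an adjusted p of 0.887 in edgeR. Without PSB-KD107 library 1 it was -0.09, and without PSB-KD107 library 4 it was 0.41 with an unadjusted p of 0.0105.

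Chac1 (gamma-glutamylcyclotransferase) was at 6.02, 6.67 and 6.48 CPM with vehicle and at 36.5, 30.3 and 16.8 CPM with PSB-KD107. The vehicle libraries lay close together, and the lowest treated library was well above them. The means were 6.39 ± 0.335 and 27.9 ± 10.1 CPM (SD, n = 3), a 4.37-fold difference. With a log2 fold change of 2.13 (SE 0.30), Chac1 had the smallest p of the 10 enzymes and rank 28 of 14165 genes. Its adjusted p was 0.176 in edgeR and 3.52e-08 in DESeq2, and DESeq2 called it in all 6 fits that left out a library. Of the 3 enzymes that DESeq2 called, Chac1 had the narrowest range when 1 library was left out, with log2 fold changes of 1.87 to 2.39 in edgeR, as the plot of fold changes with libraries left out shows.

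**Figure D2:**
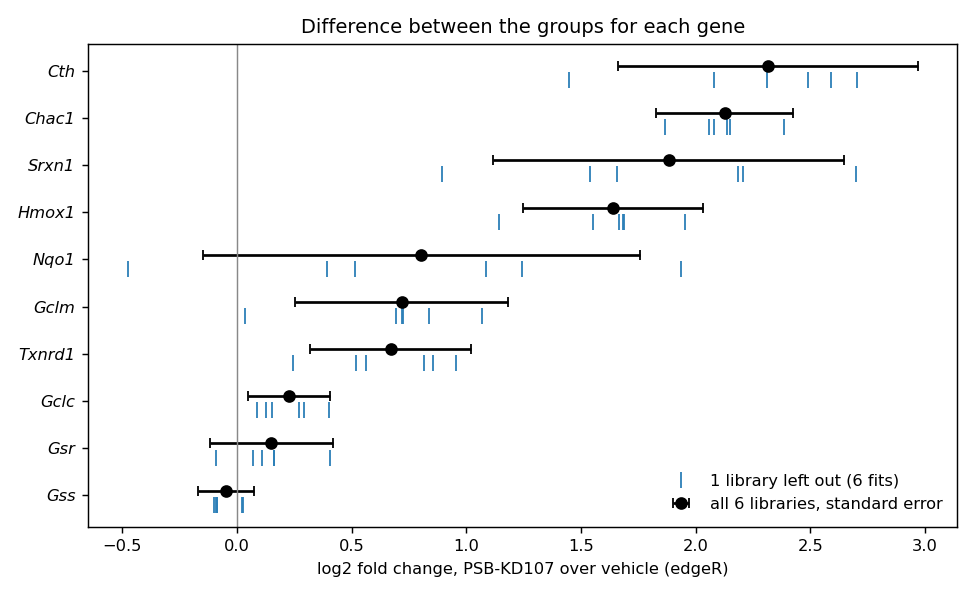
Log2 fold change of PSB-KD107 over vehicle from edgeR for each enzyme (black points, whiskers are standard errors) and the same value with 1 library left out in turn (blue ticks, 6 for each gene). The ticks of Chac1 stay between 1.87 and 2.39, whereas those of Nqo1 run from -0.48 to 1.94 and cross 0.

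Hmox1, heme oxygenase, degrades heme to biliverdin, iron and carbon monoxide, and is repressed by BACH1 and induced by NRF2. It was at 36.3, 37.4 and 30.6 CPM with vehicle and at 169.1, 100.0 and 55.7 CPM with PSB-KD107. Every treated library was above every vehicle library, and library 1 was the highest. The means were 34.8 ± 3.64 and 108.2 ± 57.1 CPM (SD, n = 3), a 3.11-fold difference. Hmox1 had a log2 fold change of 1.64 (SE 0.39), with an adjusted p of 0.281 in edgeR and 0.00340 in DESeq2. DESeq2 no longer called Hmox1 without vehicle library 2 (adjusted p = 0.0635) and without vehicle library 4 (adjusted p = 0.107), although the log2 fold change in edgeR stayed between 1.14 and 1.95 in all 6 fits that left out a library.

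Srxn1, sulfiredoxin, repairs overoxidized peroxiredoxins. It was at 51.0, 18.4 and 12.7 CPM with vehicle and at 199.8, 53.3 and 49.7 CPM with PSB-KD107. The groups overlapped only through vehicle library 1, which lay between treated libraries 4 and 2. Srxn1 had a log2 fold change of 1.88 (SE 0.77), with an adjusted p of 0.527 in edgeR and 0.120 in DESeq2. Its unadjusted p of 0.0480 was just inside 0.05, and it was 0.129, 0.119 and 0.197 without vehicle library 2, vehicle library 4 and PSB-KD107 library 1. Without PSB-KD107 library 1 the log2 fold change of Srxn1 was 0.89, and without vehicle library 1 it was 2.70 with an adjusted p in DESeq2 of 0.00287.

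Txnrd1, thioredoxin reductase of the cytosol, is the selenoprotein that keeps thioredoxin reduced. It was at 267.5, 168.6 and 153.1 CPM with vehicle and at 467.0, 243.2 and 226.9 CPM with PSB-KD107. As for Srxn1, vehicle library 1 was the only vehicle library within the treated range. The log2 fold change of Txnrd1 was 0.67 (SE 0.35), with an adjusted p of 0.625 in edgeR. Nqo1, a quinone reductase that is widely used as a marker of NRF2 activity, was at 48.3, 13.1 and 7.97 CPM with vehicle and at 87.4, 22.5 and 11.4 CPM with PSB-KD107. Nqo1 was thus spread 6.06-fold within the vehicle group and 7.67-fold within the treated group, more than the means differed (23.2 ± 22.0 and 40.4 ± 41.1 CPM, SD, n = 3). The log2 fold change of Nqo1 was 0.80 (SE 0.95), with an adjusted p of 0.824 in edgeR, and it was -0.48 without PSB-KD107 library 1 and 1.94 without vehicle library 1. Without both libraries numbered 1 it was 0.67 (unadjusted p = 0.204 in edgeR). With the library number as a replicate block in edgeR it was 0.72 (unadjusted p = 0.00315, adjusted p = 0.227). The records do not show that the number pairs the libraries.

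PSB-KD107 library 1 stood above the other treated libraries for most of these genes. The 10 enzymes together took 0.0376 to 0.0597% of all counts with vehicle, highest in library 1, and 0.0506 to 0.128% with PSB-KD107, again highest in library 1. PSB-KD107 library 1 was the highest treated library for 9 of the 10 enzymes, with Gss as the exception, compared with 30.1% of all genes. Vehicle library 1 was the highest vehicle library for 6 of the 10 and the lowest for Chac1 and Gsr, where it was the highest for 44.2% of all genes, which is near the share of the enzymes. PSB-KD107 library 4 was the lowest treated library for 8 of the 10, compared with 37.3%. With both libraries numbered 1 left out, Chac1, Hmox1, Cth, Srxn1 and Txnrd1 were at an unadjusted p under 0.05 in edgeR, with log2 fold changes of 1.83, 1.18, 1.73, 1.72 and 0.54, where 5.34% of all genes were higher at that p. In these 2 libraries against 2, the treated libraries were above the vehicle libraries for 6 of the 10 enzymes, those 5 and Gclc, and for 22.5% of all genes, and the groups did not overlap in either direction for 47.5% of all genes. The source of the difference between libraries was not tested.

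**Figure D3:**
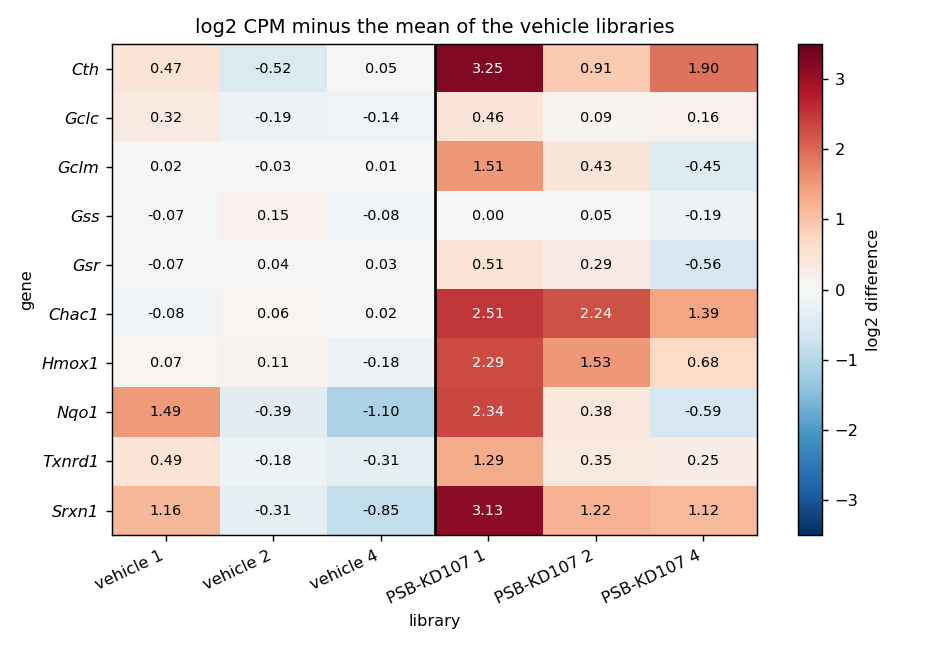
Log2 CPM of each enzyme (rows) in each library (columns) minus the mean of the 3 vehicle libraries, with the value in each cell, red for higher and blue for lower. PSB-KD107 library 1 is red for 9 of the 10 enzymes, and vehicle library 1 is also above the other vehicle libraries for Nqo1 and Srxn1 (1.49 and 1.16).

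Levels can be compared between genes only per length of exon, here as TMM-scaled CPM per kilobase of exon (FPKM). In the vehicle libraries the order of mean levels was Txnrd1 (27.7 ± 8.76 FPKM, SD, n = 3), Hmox1 (19.9 ± 2.08), Gsr (18.5 ± 0.762), Gclc (16.7 ± 3.42), Nqo1 (14.9 ± 14.1), Srxn1 (9.70 ± 7.33), Gss (5.78 ± 0.540), Gclm (4.32 ± 0.0671), Chac1 (3.90 ± 0.205) and Cth (0.558 ± 0.190). Neighbours in this order overlapped between libraries from Hmox1 down to Gss. Txnrd1 and Hmox1, Gss and Gclm, Gclm and Chac1, and Chac1 and Cth did not overlap. In the PSB-KD107 libraries Hmox1 came first with a mean of 61.8 FPKM, before Txnrd1 (44.1 FPKM) and Srxn1 (35.8 FPKM), but these levels overlapped between libraries. Txnrd1 and Hmox1 were at 32.0 and 31.8 FPKM in library 4, and Srxn1 was at 70.8 FPKM in library 1 and at 18.9 and 17.6 FPKM in libraries 2 and 4. Chac1, at 17.0 FPKM, stood above Gclm (7.11 FPKM) and Gss (5.60 FPKM), and Cth remained last with 2.78 FPKM.

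The other genes of glutathione synthesis, cysteine supply and breakdown numbered 13 tested of 16 listed, and at an unadjusted p under 0.05 in edgeR, 3 of them had higher and 1 had lower levels (median log2 fold change 0.26). Among all genes tested, 6.47% were higher and 2.93% lower at that p. Slc7a11, the cystine carrier of the cystine-glutamate exchanger, was at 5.15, 1.26 and 0.838 CPM with vehicle and at 139.1, 21.8 and 13.1 CPM with PSB-KD107. The treated libraries were all above the vehicle libraries, in the order 1, 2, 4 seen in both groups for Srxn1, Txnrd1 and Nqo1. Its log2 fold change was 4.57 (SE 1.23), with an adjusted p of 0.340 in edgeR and 0.00812 in DESeq2. Without PSB-KD107 library 1 the log2 fold change of Slc7a11 was 2.82 and without vehicle library 1 it was 5.78, and DESeq2 no longer called it without vehicle library 2 (adjusted p = 0.149) or 4 (0.130). Its partner subunit Slc3a2 had a log2 fold change of 0.62 (SE 0.17), and Anpep, a surface aminopeptidase that acts on the products of extracellular glutathione breakdown, had a log2 fold change of 3.32 (SE 0.56). Anpep was called by DESeq2 (adjusted p = 2.46e-07) and Slc3a2 was not (0.0931). The gene that was lower, Ggt5, named here after its value was seen, had a log2 fold change of -1.69 and a DESeq2 adjusted p of 0.267. Chac2, the paralog of Chac1, had a log2 fold change of 0.25 with an unadjusted p of 0.190 in edgeR and was also named after its value was seen.

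Of the enzymes that use glutathione, none of 9 peroxidases and glutaredoxins was at an unadjusted p under 0.05 in edgeR (median log2 fold change 0.08), and the smallest p-values were those of Glrx, Gpx3 and Gpx1 with log2 fold changes of 1.03 (SE 0.48), 0.95 (SE 0.84) and 0.16 (SE 0.17). Over all genes tested, 6.47% were higher and 2.93% lower at that p. In lists of the sizes given here, 1 or 2 such genes are not read as a result about the list. Among 16 glutathione transferases tested, 2 were higher and 0 lower: Gsto1 with 0.62 (SE 0.11) and Mgst3 with 0.96 (SE 0.23) on the log2 scale. Both were called by DESeq2 (adjusted p = 0.00116 and 0.0184), which called 2.25% of its genes as higher. Mgst3 kept this call only in the fit without PSB-KD107 library 1, and its adjusted p in DESeq2 was 0.0639 to 0.224 in the other 5 fits that left out a library. Mgst1 followed with 0.92 (SE 0.51). Of 14 thioredoxins and peroxiredoxins, Sesn2 was higher (0.63, SE 0.19) and Txnip, the inhibitor of thioredoxin, was lower (-1.01, SE 0.18), and DESeq2 called Txnip (adjusted p = 5.70e-04) but not Sesn2. Sesn3 had a log2 fold change of -0.34 (SE 0.17). Of the 4 superoxide dismutases and catalase, 1 was higher, Sod2, the dismutase of mitochondria, with a log2 fold change of 0.27 (SE 0.09) and a DESeq2 adjusted p of 0.436, while Cat and Sod1 were at 0.36 (SE 0.23) and -0.24 (SE 0.20).

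Of NRF2 and its regulators, 14 were tested, and at an unadjusted p under 0.05 in edgeR, 8 had higher and 1 had lower levels (median log2 fold change 0.36). The shares over all genes tested were 6.47% higher and 2.93% lower. Nfe2l2 itself was at 91.6, 86.8 and 86.5 CPM with vehicle and at 129.5, 108.9 and 171.1 CPM with PSB-KD107. All treated libraries were higher, but here library 4 was the highest, unlike for the enzymes. Nfe2l2 had a log2 fold change of 0.63 (SE 0.17), with an adjusted p of 0.349 in edgeR and 0.111 in DESeq2. Keap1, the adaptor that marks NRF2 for degradation, overlapped between the groups, with a log2 fold change of 0.13 (SE 0.10) and an unadjusted p of 0.247 in edgeR. Bach1, the repressor of Hmox1, had a log2 fold change of 0.35 (SE 0.10), and the small MAF genes Maff and Mafk had 1.12 (SE 0.26) and 0.62 (SE 0.15). Sqstm1, which encodes the autophagy receptor p62 that binds KEAP1, was at 374.3, 438.1 and 433.3 CPM with vehicle and at 1021, 871.4 and 685.1 CPM with PSB-KD107. The groups did not overlap. Sqstm1 had a log2 fold change of 1.05 (SE 0.17), and DESeq2 called it (adjusted p = 7.94e-05) together with Maff (0.00703) and Mafk (0.0443). The DESeq2 call of Maff ended without vehicle library 2 (0.0927), vehicle library 4 (0.118) or PSB-KD107 library 1 (0.0863), and that of Mafk without vehicle library 1 (0.0812), 2 (0.167) or 4 (0.398). The gene that was lower was Btrc, a subunit of another NRF2 ligase, with a log2 fold change of -0.43 and a DESeq2 adjusted p of 0.392, named after its value was seen. RNA levels say nothing of the amount of NRF2 protein in the nucleus, which was not measured in these data.

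A further 24 known NRF2 targets were tested, of which, at an unadjusted p under 0.05 in edgeR, 2 had higher and 0 had lower levels. Across all genes tested, 6.47% were higher and 2.93% lower at that p, so the count of higher genes is near the share of all genes. The median log2 fold change of the 24 was 0.30, and 22 had a value above 0, against 49.9% of all genes. Ftl1, the light chain of the iron store ferritin, was at 664.0, 427.5 and 393.7 CPM with vehicle and at 1703, 1022 and 777.5 CPM with PSB-KD107. Every treated library was above every vehicle library. Ftl1 had a log2 fold change of 1.24 (SE 0.35), with a DESeq2 adjusted p of 0.0287, which was 0.348, 0.363 and 0.168 without vehicle library 2, vehicle library 4 and PSB-KD107 library 1. The other gene was Nqo2, a relative of Nqo1, with a log2 fold change of 0.68 (SE 0.24), which DESeq2 did not call (adjusted p = 0.243). Esd, an esterase, had 0.86 (SE 0.37) with an unadjusted p of 0.0590 in edgeR. Reads of ferritin genes can be shared with near-identical pseudogenes, so the counts of Ftl1 are uncertain. As among the 10 enzymes, PSB-KD107 library 1 was the highest treated library for most of these genes, 19 of 24, against 30.1% of all genes. Vehicle library 1 was the highest vehicle library for 17 of the 24 (70.8%), against 44.2% of all genes and 6 of the 10 enzymes.

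Chac1 and Slc7a11 are known targets of ATF4. The CARE cores in their windows are matches of letters, and the part of ATF4 or NRF2 in their levels was not tested. Of 18 genes listed as ATF4 and its targets in amino acid starvation, which include Slc7a11 and Sesn2 again, 16 had higher and 0 had lower levels at an unadjusted p under 0.05 in edgeR (median log2 fold change 1.16), and DESeq2 called 11. At that edgeR p, 6.47% of all genes tested were higher and 2.93% lower, and DESeq2 called 2.25% of its genes as higher. The list was chosen with earlier results of these data known, so its counts are a description and not independent evidence. Atf4 itself had a log2 fold change of 0.69 (SE 0.20), with a DESeq2 adjusted p of 0.0983. Trib3, a pseudokinase, was at 4.44, 2.49 and 2.57 CPM with vehicle and at 56.4, 36.6 and 34.8 CPM with PSB-KD107. Ddit3, which encodes CHOP, was at 9.06, 12.0 and 11.4 CPM with vehicle and at 81.1, 47.5 and 47.7 CPM with PSB-KD107. The groups did not overlap for either gene. The log2 fold changes were 3.75 (SE 0.34) for Trib3, 2.44 (SE 0.26) for Ddit3 and 1.61 (SE 0.14) for the transcription factor Atf5, with adjusted p of 0.0738, 0.0900 and 0.0738 in edgeR. Over all the lists, without the 10 enzymes and counting each gene once, 31 of 110 genes had higher and 3 had lower levels at an unadjusted p under 0.05 in edgeR. This compares with 6.47% and 2.93% of all genes tested, and the median log2 fold change of the 110 was 0.31. The 110 include the 18 genes of the ATF4 list, and its 16 higher genes are among the 31. The total is therefore also a description and not independent evidence.

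**Figure D4:**
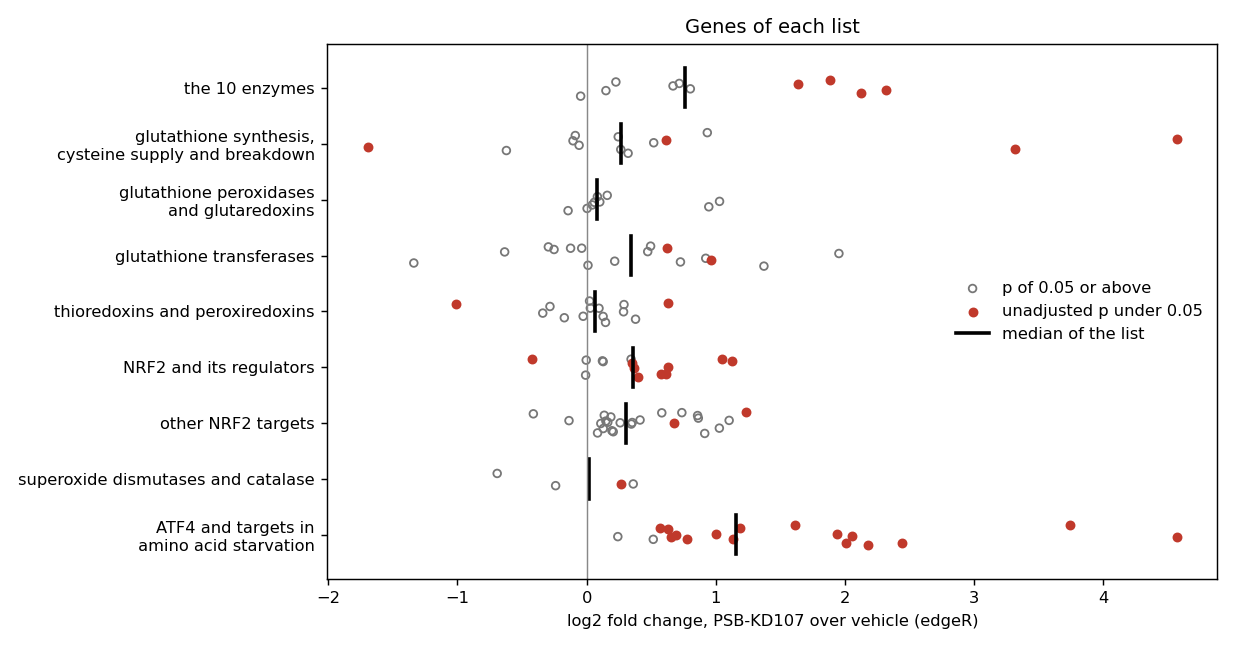
Log2 fold change of PSB-KD107 over vehicle from edgeR for every tested gene of each list (points, filled red where the unadjusted p was under 0.05) with the median of the list as a black bar. The medians are 0.76 for the 10 enzymes, 0.08 for peroxidases and glutaredoxins, 0.30 for other NRF2 targets and 1.16 for ATF4 and its targets.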

How the data were processed

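RNA-seq of mdx myoblasts treated with vehicle or 10 μM PSB-KD107 (3 libraries each) was used. The authors aligned the reads with STAR 2.3.0 to mm10 and deposited raw counts per gene with no normalization. The counting program, its annotation and its use of strand are not given in the sources used here. Libraries were grouped by the sample records and column names, and those numbered 4 were assigned to a group only. The members and gene lists were chosen with earlier results of these data known.

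The software was edgeR 4.0.16, DESeq2 1.42.0 and limma 3.58.1 under R 4.3.3, and Python 3.11.15. Genes were filtered with filterByExpr, libraries scaled by TMM, and groups compared by edgeR's quasi-likelihood test with Benjamini-Hochberg adjustment over all 14165 genes tested (threshold 0.05). The SE is the absolute log2 fold change divided by the square root of F. Exact permutation tests were two-sided. FPKM used merged exon lengths of GENCODE M21, which cover 99.96% of counts. The floor of 3 counts covers counting error only. Genes named were the 10 enzymes, the 3 genes of each list with the smallest p, Slc7a11, Nfe2l2, Keap1, Bach1 and Atf4, and the 5 genes nearest in pattern to Chac1, Hmox1 and Nqo1.

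Alternatives were RLE factors, no filter, DESeq2, limma-voom, a replicate block and each library left out. DESeq2 with each library left out and omission of both libraries numbered 1 were added after the data had been seen. On simulated counts of 14165 genes, edgeR recovered 62% of genes changed 4-fold and 11% of those changed 2-fold with 7 false among 80 calls, and DESeq2 recovered 84% and 52% with 68 false among 204.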

Additional observations from a re-analysis of the deposited data

How the results depend on the processing

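Each group had 3 libraries. Alternative log2 fold changes were obtained for the 10 enzymes and for the genes named by rule from the wider lists. Of these values, 631 kept their direction and their side of an unadjusted p of 0.05, 49 passed it newly, 33 no longer passed it and 9 changed direction. Genes at an adjusted p under 0.05 numbered 0 in edgeR, 8 with no filter on low counts and 410 of 13829 (2.96%) with DESeq2, which called 3 of the 10 enzymes. The cause of the difference between the tools was not tested. With 1 library left out, edgeR called 0 genes in each of 6 fits, and DESeq2 called 599, 178 and 160 genes without vehicle libraries 1, 2 and 4 (with 4, 1 and 1 enzymes) and 283, 768 and 674 without PSB-KD107 libraries 1, 2 and 4 (with 2, 3 and 3 enzymes). Shares of the genes tested are not at hand for these DESeq2 fits, so the enzyme counts are not read against them. In edgeR the fits with 1 library left out put 3 to 6 enzymes at an unadjusted p under 0.05, against 4.65 to 12.2% of all genes. In DESeq2 they put 3 to 7 there, for which the share of all genes is not at hand. The median log2 fold change of the enzymes was 0.17 to 1.31. Enzymes with groups that did not overlap numbered 3 to 6 (15.8% of all genes with all libraries, 18.9 to 38.3% with 1 left out). Of the 110 genes of the wider lists, 26 to 39 were at an unadjusted p under 0.05 in the edgeR fits, and up to 46 over both tools. With the libraries numbered 1 left out of both groups, 6 enzymes did not overlap, against 47.5% of all genes (22.5% with PSB-KD107 higher). The log2 fold change changed direction for Gss, Gsr and Nqo1. With 1 library left out, that of Gss ranged from -0.098 to 0.025 in edgeR, above 0 without vehicle library 2 and, at 0.021, without PSB-KD107 library 4 (0.015 and 0.0071 in DESeq2). That of Gsr ranged from -0.091 to 0.41, below 0 without PSB-KD107 library 1 (-0.085 in DESeq2), and was -0.12 without the libraries numbered 1. That of Nqo1 ranged from -0.48 to 1.94, below 0 without PSB-KD107 library 1 (-0.46 in DESeq2).

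The deviations of the vehicle and the PSB-KD107 library of the same number from their group means had a correlation across genes of 0.63, 0.50 and -0.13 for the numbers 1, 2 and 4, and vehicle library 4 was closest to PSB-KD107 library 2 (0.64). Deviations from a mean of 3 libraries depend on one another, so these values cannot decide whether the numbers pair the libraries. The numbers were not taken as pairs because the records do not show pairing. By number, each treated library was above its vehicle library for every enzyme except Gclm, Gsr and Gss. With the number as a replicate block over 6 libraries, 7 enzymes were at an unadjusted p under 0.05, against 12.2% of all genes, and 0 at an adjusted p under 0.05. Among the 7 were Srxn1, Txnrd1 and Nqo1, with log2 fold changes of 1.83, 0.63 and 0.72. Their unadjusted p in this edgeR fit was 1.41e-04, 0.00236 and 0.00315. With the block on the libraries numbered 1 and 2, which leaves 1 residual degree of freedom, 9 enzymes were at an unadjusted p under 0.05, against 30.6% of all genes. At an adjusted p under 0.05 there were 8 enzymes, among 2456 of 14400 genes, and 69 genes of the wider lists were at an unadjusted p under 0.05.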

Other observations

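Genes whose pattern over the 6 libraries came nearest to that of an enzyme were found by the root mean square difference (RMS) of log2 CPM, each centred on its own mean. For Chac1 these were Mt3, a metallothionein (RMS 0.0859), Rassf5 (0.198), Gm13502 (0.244), Stx3 (0.248) and Ddit3 (0.315), with log2 fold changes of 1.90 to 2.44. For Hmox1 they were Evi2a (0.125), Ampd3 (0.178), Slc27a1, a fatty acid transporter (0.210), Il6ra (0.243) and Dpp7 (0.244). For Nqo1 they were Tmem40 (0.259), Akap12 (0.275), Lpl, lipoprotein lipase (0.277), Chrna7 (0.278) and Mertk (0.291). The measure describes likeness over 6 libraries only, and the 3 sets share no gene.

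Of the muscle markers, 4 were looked at singly, picked without a stated rule, and the others were not. Of these 4, DESeq2 called Pax7 and Myh3, both lower with PSB-KD107, and edgeR called none. Over all genes, DESeq2 called 99 of 13829 as lower. Pax7 had a log2 fold change of -0.90 (SE 0.17) and a DESeq2 adjusted p of 0.00181. Myog, the factor of early differentiation, had -0.49 (SE 0.18) with a DESeq2 adjusted p of 0.203, and Myh3 had -0.44 (SE 0.17) with 0.0308. Myod1 overlapped between the groups, with -0.59 and a DESeq2 adjusted p of 0.599. In edgeR the adjusted p of Pax7, Myog and Myh3 was 0.209, 0.469 and 0.493, and their unadjusted p was 0.00164, 0.0309 and 0.0374.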
